A study of Rattus norvegicus with 20 samples.

Results

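Liver gene expression in obese rats was compared with that in lean controls, 5 animals on 5 arrays in each group, 10 of the 20 arrays of the series. All were male rats labelled Zucker in strain. The obese rats were of the Zucker diabetic fatty (ZDF) line, known for a leptin receptor defect that leads to overeating, obesity and diabetes. The animals were caged singly with free access to food on a reversed cycle of 12 h light and 12 h dark. The lean control rats ate a standard Purina chow, and the obese rats ate a stock diet for 6 weeks, so body type and diet cannot be told apart in this comparison. The sources used here give neither age, nor the genotype of the lean controls, nor the hour of tissue collection. Rats given rosiglitazone or resveratrol, 5 of each, entered the fit only to estimate the spread of each gene.

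The liver sets blood glucose and blood lipids under opposed hormonal signals. Insulin acts through docking proteins such as IRS2 to raise the lipogenic factor SREBP-1c and to hold back glucose output, whereas glucagon acts through cyclic AMP and the factor CREB to induce genes such as Nr4a1 and Ppargc1a. Growth hormone signals through STAT5 and induces its own inhibitor, Socs2. Hepatocytes make most of the tissue and most plasma proteins, and they share it with Kupffer cells (the resident macrophages), sinusoidal endothelium and stellate cells, each with its own marker genes.

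Values are deposited log2 expression, where a difference of 1 is a doubling. They span −0.24 to 12.25, and the middle of an array lies between 2.36 and 2.53. Of 14557 genes with a single symbol, 9481 exceeded that middle on 5 or more arrays and entered the test, and a gene is said to have risen or fallen in obese livers where the limma p adjusted over all 9481 was under 0.05. This held for 172 genes, 1.81% of those tested, of which 65 rose (0.686%) and 107 fell (1.13%). The 5 obese and the 5 lean control values did not overlap in 335 genes, 3.53% of those tested (145 higher, 1.53%, and 190 lower, 2%), and in 103 of the 172. The median difference over all genes was 0.00. Hepatocyte transcripts stood at the top of the scale, with albumin (Alb) at 11.8 ± 0.09 in lean control and 11.8 ± 0.07 in obese livers (mean ± SD, n = 5 rats each), and none of the 25 tested hepatocyte identity genes was called (1, lower, without the array of lean control rat 3, described next).

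The array labelled lean control rat 3 lay closer to the obese arrays than to its own group. Its mean correlation over the tested genes was 0.978 with the 5 obese arrays and 0.969 with the other lean control arrays, whereas each of the other 4 lean control arrays correlated better with its own group. Those 4 had mean correlations of 0.968 to 0.975 with their own group and of 0.959 to 0.967 with the obese arrays. Rat 3 thus differed in its likeness to the obese arrays rather than in its correlation with the lean controls. On the first principal component of the 10 arrays, which held 29.6% of the variance, it lay at 7.65, inside the obese range of 7.01 to 18.02, while the others lay between −23.5 and −7.22. When its array was left out, 517 genes were called (5.45%), 284 higher (3%) and 233 lower (2.46%), and all 172 calls were among them. In 238 of those 284 genes (83.8%) and in 142 of those 233 (60.9%) rat 3, which had no part in the selection, lay nearer the obese mean than the mean of the other lean control rats. The same measure for lean control rats 1, 2, 4 and 5, each left out in turn, ran from 11.8% to 35.7% of the genes called higher and from 7.32% to 37.8% of those called lower. These shares rest on only 14 to 36 genes called higher and 41 to 98 called lower. Rat 3 stayed among the lean controls in those fits, so the shares are not fully alike to those of rat 3. Where leaving out rat 3 moved the count of calls in a list described below by more than 1.5 times, both counts are given. Counts without rat 3 stand beside a rise over all genes, from 1.81% to 5.45% called (3% higher, 2.46% lower). Leaving out any other single array ended between 63 and 116 of the 172 calls, with an adjusted p of at most 0.128, and 37 genes (6 higher, 31 lower) stayed called whichever array was left out.

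**Figure D1:**
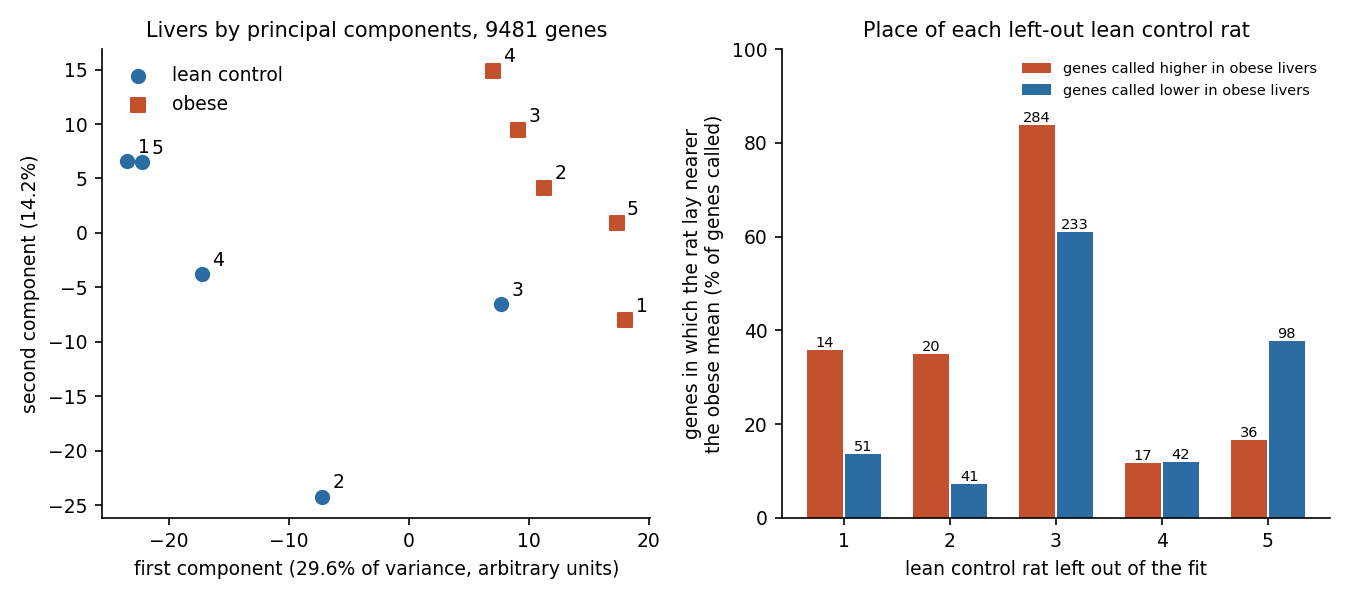
The left panel places the 10 livers on the first and second principal components (arbitrary units, share of variance on the axes, numbers are replicate numbers), and the right panel gives, for each lean control rat left out of the fit, the percentage of genes called higher or lower without it in which that rat lay nearer the obese mean (number of genes above each bar). Lean control rat 3 lies beside the obese rats at 7.65 on the first component and has the tallest bars, 83.8% and 60.9%.

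Genes of glucagon and cyclic AMP signalling moved in both directions. Of 37 tested members 3 rose and 3 fell, a share of 16.2% against 1.81% of all genes. The members that fell are induced by cyclic AMP, whereas the receptor itself rose. The orphan nuclear receptor Nr4a1, an immediate target of CREB, read 6.60, 8.06, 5.94, 7.06 and 8.02 in lean control rats 1 to 5, the order used throughout, and 4.07, 4.56, 4.41, 3.77 and 3.37 in obese rats 1 to 5 (log2 difference −3.10, SE 0.46, adjusted p = 0.00499). All obese values lay below all lean control values, and the means differ 8.56-fold. Sik1, a kinase that is induced by CREB and restrains its coactivators, read 8.12, 7.85, 7.15, 8.16 and 8.38 in lean control and 5.82, 6.14, 7.28, 6.84 and 6.26 in obese livers (log2 difference −1.47, SE 0.27, adjusted p = 0.0125), with obese rat 3 above lean control rat 3. For Ppargc1a, the coactivator of gluconeogenesis and mitochondrial biogenesis, the values were 6.17, 5.53, 4.15, 6.63 and 6.50 against 3.58, 4.74, 4.91, 3.83 and 3.94 (log2 difference −1.60, SE 0.38, adjusted p = 0.0294), and lean control rat 3 fell among the obese rats. Nr4a2, the close relative of Nr4a1, fell as well (log2 difference −1.38, SE 0.29, adjusted p = 0.0201), with no overlap.

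Promoters of the 3 CREB targets are shown because the genes fell together. Each runs from 250 bases before to 50 bases after the transcription start in RefSeq's rat assembly GRCr8, with the CREB half-site letters CGTCA, on either strand, in capitals. They lie at chr7:134259888-134260187 on the plus strand (Nr4a1), chr20:9958597-9958896 on the minus strand (Sik1) and chr14:63634058-63634357 on the plus strand (Ppargc1a).
Nr4a1: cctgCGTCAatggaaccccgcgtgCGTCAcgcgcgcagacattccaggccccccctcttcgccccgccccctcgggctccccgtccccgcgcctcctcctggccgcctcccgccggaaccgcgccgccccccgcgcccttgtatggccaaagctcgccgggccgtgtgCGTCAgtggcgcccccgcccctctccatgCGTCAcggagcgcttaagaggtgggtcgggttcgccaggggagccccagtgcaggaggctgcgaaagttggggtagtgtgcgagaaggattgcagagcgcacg
Sik1: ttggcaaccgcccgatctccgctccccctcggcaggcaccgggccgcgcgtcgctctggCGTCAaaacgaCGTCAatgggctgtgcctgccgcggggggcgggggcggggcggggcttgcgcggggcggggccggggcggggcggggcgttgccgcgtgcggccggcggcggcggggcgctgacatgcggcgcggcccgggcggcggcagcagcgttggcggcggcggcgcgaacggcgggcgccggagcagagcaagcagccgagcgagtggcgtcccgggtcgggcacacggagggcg
Ppargc1a: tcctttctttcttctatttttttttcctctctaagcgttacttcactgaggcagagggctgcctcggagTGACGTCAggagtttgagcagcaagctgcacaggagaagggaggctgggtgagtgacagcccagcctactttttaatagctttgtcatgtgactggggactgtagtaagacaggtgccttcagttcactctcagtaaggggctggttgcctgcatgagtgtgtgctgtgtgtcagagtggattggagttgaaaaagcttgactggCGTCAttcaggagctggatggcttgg
Matches numbered 4 in Nr4a1, 2 in Sik1 and 3 in Ppargc1a, where 2 of the 3 overlap within the palindromic full site TGACGTCA, the only full site of the 3 promoters. CGTCA was found in 29.8% of the 7715 promoters of tested genes, in 11 of 57 promoters of genes that rose and in 22 of 82 of genes that fell (26.8%). TGACGTCA was found in 2.97% of all, in 1 of the 57 and in 1 of the 82. Of the other letters searched on both strands, the E-box CACGTG was in 9.28% of all, in 2 of the 57 and in 8 of the 82, and CCAAT in 37.9% of all, in 23 of the 57 and in 32 of the 82. The D-box TTATGTAA was held by 0.493% of all promoters, by none of the 57 and by 2 of the 82, and the NR4A site AAAGGTCA by 0.959% of all, by 1 of the 57 and by none of the 82. A match is only a run of letters.

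The glucagon receptor Gcgr read 5.49, 4.92, 5.78, 5.36 and 5.49 in lean control and 5.93, 5.97, 6.11, 6.20 and 6.02 in obese livers (log2 difference 0.64, SE 0.13, adjusted p = 0.0194). Pde8b, which breaks down cyclic AMP, rose as well, from 3.52, 2.63, 3.30, 2.76 and 2.41 to 3.64, 3.63, 4.09, 4.15 and 4.42 (log2 difference 1.06, SE 0.21, adjusted p = 0.0165). Neither gene's groups overlapped. Rgs16, which shortens signalling through G proteins, had obese values of 10.06, 9.71, 9.90, 9.91 and 9.75 against 6.78, 7.47, 10.21, 8.39 and 7.77 (log2 difference 1.74, SE 0.37, adjusted p = 0.0206), so lean control rat 3 had the highest value of all. Among the 7 called genes named here, 4 (Nr4a1, Sik1, Gcgr and Pde8b) kept the call whichever array was left out, and the others lost it without at least 1 of the arrays of lean control rats 1, 2, 4 and 5 and obese rats 1, 4 and 5 (adjusted p of up to 0.0930), while 3 passed with these 10 arrays alone in the fit. The gluconeogenic enzyme Pck1 did not pass (log2 difference −0.12, SE 0.09, adjusted p = 0.550).

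Insulin signalling gave 2 calls, both lower, among 45 tested members (4.44%, against 1.81% of all genes called and 1.13% called lower). The median difference of the members was 0.02. Irs2, which passes on the signal of the insulin receptor, read 6.19, 6.58, 5.85, 6.45 and 6.42 in lean control and 5.19, 4.55, 5.30, 5.01 and 4.66 in obese livers (log2 difference −1.36, SE 0.26, adjusted p = 0.0155). The lowest lean control value was that of rat 3 and still lay above every obese value. Phlpp2, a phosphatase that acts on AKT, fell by 0.68 (SE 0.17, adjusted p = 0.0344) with lean control rat 3 inside the obese range. The insulin receptor Insr itself, looked up after the other values were seen, did not pass (log2 difference 0.14, SE 0.11, adjusted p = 0.549).

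In the growth hormone and IGF axis the median of 28 tested genes was −0.29, with 19 below 0. Of the 28, 3 were called, 1 higher and 2 lower (10.7%, against 1.81% of all genes). Without lean control rat 3 the calls were 1 higher and 5 lower. Socs2 had the greatest fall of all tested genes, with 6.30, 5.30, 2.79, 5.53 and 7.31 in lean control and 1.94, 1.79, 2.05, 2.27 and 2.28 in obese livers (log2 difference −3.38, SE 0.50, adjusted p = 0.00499). Obese values lay below the array medians, near the low end of the scale, and lean control rat 3 lay nearer to them than to its own group. Obp3, a lipocalin of the alpha-2u globulin family, fell by 1.75 (SE 0.35, adjusted p = 0.0190), and the steroid hydroxylase Cyp2a1 rose by 0.45 (SE 0.11, adjusted p = 0.0404), both without overlap. Cish, another STAT5 target, was at 4.81, 5.20, 3.95, 4.58 and 6.26 against 4.11, 4.12, 4.18, 3.94 and 3.75 (log2 difference −0.94, SE 0.28, adjusted p = 0.0818) and did not pass, and without rat 3 it was called at a log2 difference of −1.19 (adjusted p = 0.0104). Of the 5 called genes of the insulin and growth hormone lists, 3 (Irs2, Socs2 and Obp3) kept the call whichever array was left out, and the others lost it without at least 1 array other than that of lean control rat 3 (adjusted p of up to 0.101), while 3 passed with these 10 arrays alone in the fit.

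**Figure D2:**
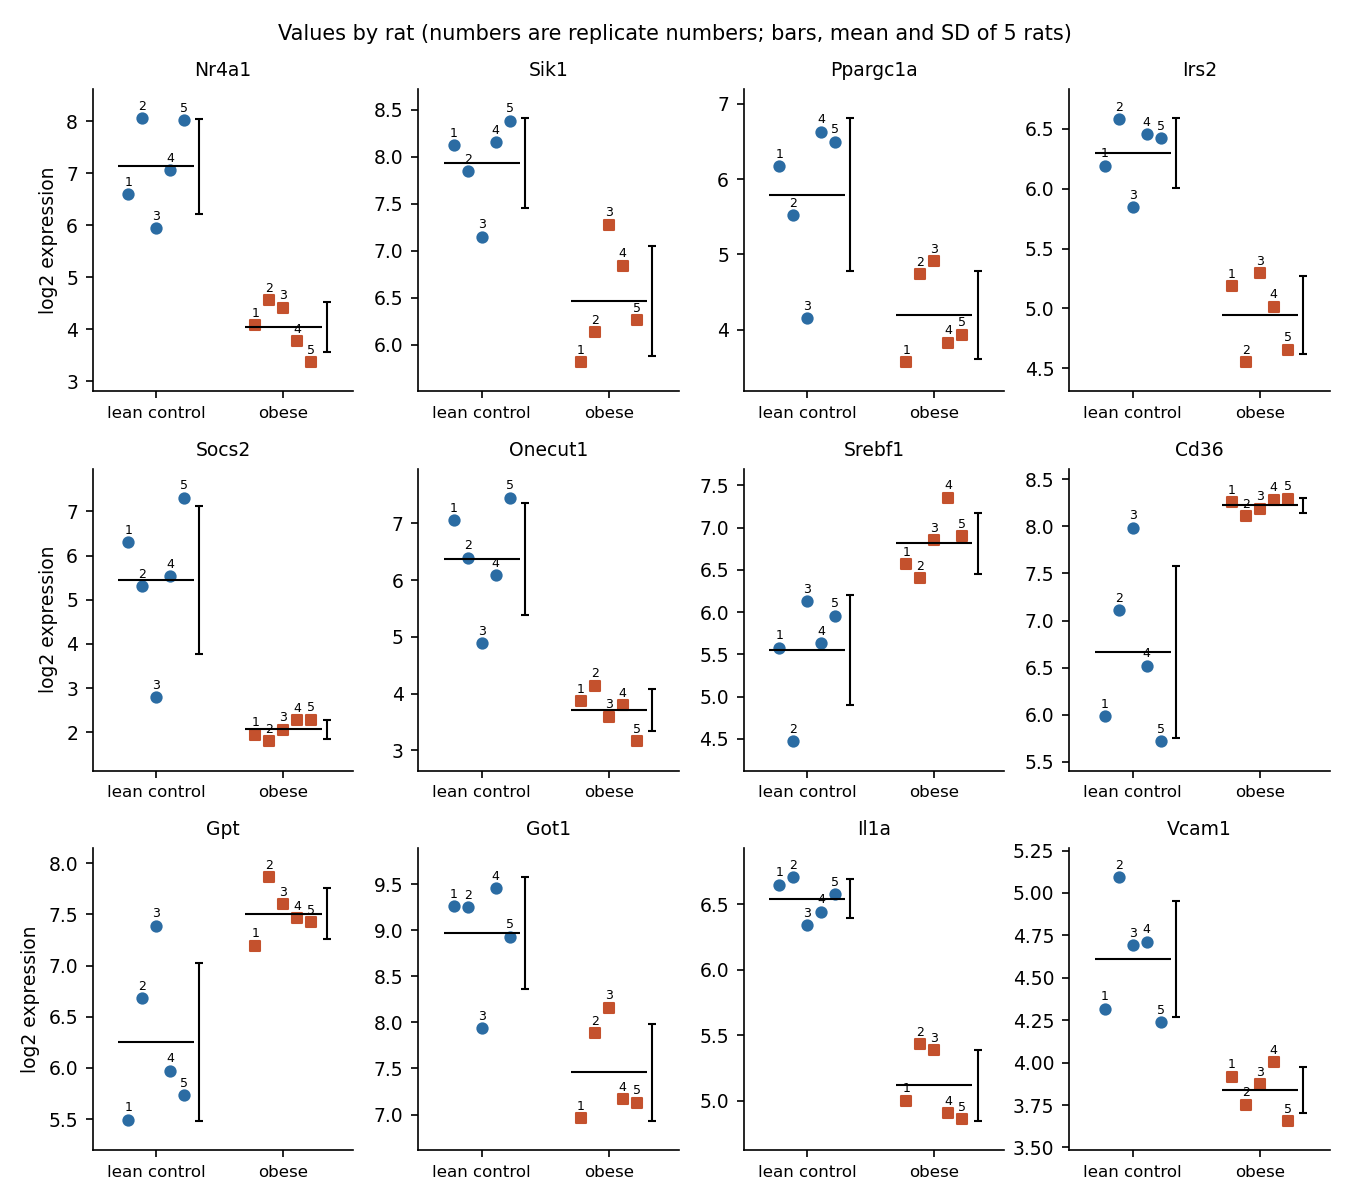
Log2 expression of 12 genes in each lean control (circles) and obese (squares) liver, with the group mean and SD of 5 rats and the replicate number at each point; each panel has its own axis. Nr4a1, Irs2, Socs2, Onecut1, Srebf1, Cd36, Il1a and Vcam1 do not overlap between groups, whereas in Sik1, Ppargc1a, Gpt and Got1 lean control rat 3 lies within the obese range.

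Transcription factors of metabolism changed in a few members. Of 20 nuclear receptors, 5 were called, against 1.81% of all genes. Nr1h3, the oxysterol receptor LXRalpha that drives Srebf1, rose from 7.30, 7.22, 7.34, 6.95 and 7.0 to 8.01, 7.36, 7.51, 7.64 and 7.94 (log2 difference 0.53, SE 0.13, adjusted p = 0.0384), and Rxrg, a retinoid partner receptor, rose by 0.74 (SE 0.15, adjusted p = 0.0194). The glucocorticoid receptor Nr3c1 fell by 0.43 (SE 0.10, adjusted p = 0.0273), beside Nr4a1 and Nr4a2. Srebf1, which encodes the lipogenic factor SREBP-1c, rose from 5.58, 4.47, 6.13, 5.63 and 5.96 to 6.57, 6.40, 6.85, 7.35 and 6.90 (log2 difference 1.26, SE 0.26, adjusted p = 0.0195), 2.40-fold on the linear scale, with no overlap.

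Onecut1, a hepatocyte lineage factor also called HNF6, read 7.06, 6.40, 4.88, 6.08 and 7.45 in lean control livers and 3.86, 4.14, 3.59, 3.80 and 3.16 in obese livers (log2 difference −2.66, SE 0.41, adjusted p = 0.00541). Again rat 3 had the lowest lean control value and stayed above the highest obese value. In the same list of 26 lineage factors only Xbp1, a factor of the secretory pathway, was also called (log2 difference −0.85, SE 0.20, adjusted p = 0.0297). These 2 calls were 7.69% of the list, against 1.81% of all genes called and 1.13% called lower. Bach1, a heme-sensitive repressor, the NF-kB subunit Rel, the ETS factor Fli1, which is typical of endothelial and blood cells, the zinc finger protein Zfp189 and the chromatin remodeller Chd1 fell by 0.53, 0.77, 0.59, 0.99 and 0.39. Of 191 zinc finger proteins Zfp189 was the single call (0.524%, against 1.81% of all genes). Without rat 3, 3 were called, all lower, where 5.45% of all genes were called. Immediate early and inducible factors had a median of −0.25 over 42 genes, 34 of them below 0. Sik1 was their only call (2.38%, against 1.81% of all genes), and without lean control rat 3 they had 2 calls higher and 5 lower. Of the 11 called factors first named here, 4 (Srebf1, Onecut1, Rel and Zfp189) kept the call whichever array was left out, and the others lost it without at least 1 array other than that of lean control rat 3 (adjusted p of up to 0.105), while 1 passed with these 10 arrays alone in the fit.

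Genes of fatty acid uptake and lipid droplets gave 3 calls among 29 (2 higher, 1 lower), 10.3% against 1.81% of all genes, and 5 higher and 2 lower without lean control rat 3. The fatty acid transporter Cd36 read 5.98, 7.11, 7.98, 6.52 and 5.72 in lean control and 8.25, 8.11, 8.19, 8.28 and 8.29 in obese livers (log2 difference 1.56, SE 0.31, adjusted p = 0.0165). The obese rats spanned only 0.19, whereas the lean controls spanned 2.27 with rat 3 on top. Cidec, which promotes fusion of lipid droplets, rose from 6.38, 6.85, 7.13, 6.68 and 6.30 to 7.49, 7.34, 7.52, 7.19 and 7.41 (log2 difference 0.72, SE 0.15, adjusted p = 0.0194), also without overlap. The fatty acid binding protein Fabp7 fell from 6.56, 7.09, 4.92, 7.52 and 7.43 to 5.16, 5.25, 4.38, 5.36 and 4.61 (log2 difference −1.75, SE 0.38, adjusted p = 0.0221), with rat 3 among the obese rats.

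Synthesis of fatty acids and triglycerides had a list median of 0.02 over 38 genes. It gave 3 calls (2 higher, 1 lower), 7.89% against 1.81% of all genes, and 6 higher and 2 lower without lean control rat 3. The desaturase Fads1 fell by 1.47 (SE 0.38, adjusted p = 0.0464) and its relative Fads3 rose by 0.70 (SE 0.17, adjusted p = 0.0294). Tm6sf2, a membrane protein needed for lipid loading of VLDL, rose from 5.33, 5.98, 6.67, 5.95 and 5.89 to 7.0, 6.42, 6.83, 6.53 and 6.73 (log2 difference 0.74, SE 0.18, adjusted p = 0.0308). The desaturase Scd, a gene fixed for description, varied among the lean controls. It was at 8.44, 6.14, 9.86, 8.19 and 8.72 against 8.89, 8.24, 9.29, 8.99 and 9.33 (log2 difference 0.68, SE 0.48, adjusted p = 0.503), with the highest and the lowest value of all rats in lean control livers. Acly, Elovl6 and, from the glycolysis list, Pklr were looked up after values were seen. They had adjusted p values of 0.0531, 0.143 and 0.0538 with 5 lean controls, and each was called without rat 3. Pnpla3 (−0.44, adjusted p = 0.478) and the adiponectin receptor Adipor2 (0.23, adjusted p = 0.487) did not pass.

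Cholesterol synthesis and uptake had a median of −0.21 over 20 genes, 14 of them below 0, and a single call (5%, against 1.81% of all genes). Idi1, an isomerase of the isoprenoid pathway, read 5.79, 5.92, 3.83, 5.91 and 5.85 in lean control and 3.60, 5.02, 3.71, 3.94 and 3.59 in obese livers (log2 difference −1.49, SE 0.38, adjusted p = 0.0434), with lean control rat 3 lower than the next lean control by 1.95 and obese rat 2 above its own group. Without rat 3 the calls were 3, all lower (Idi1, Msmo1 and Sqle). Of 19 bile acid genes none was called, and without rat 3 the calls were 1 higher and 2 lower (Akr1d1, Atp8b1 and Cyp7a1). Cyp7a1, the rate-limiting enzyme of bile acid synthesis, was at 9.29, 8.36, 7.27, 8.64 and 8.58 against 6.57, 6.88, 7.62, 8.26 and 7.34 (log2 difference −1.09, SE 0.37, adjusted p = 0.118), and without rat 3 it was called at a log2 difference of −1.38 (adjusted p = 0.0248). The sterol exporter Abcg5 fell from 6.37, 6.04, 4.53, 7.0 and 6.54 to 4.15, 4.79, 4.17, 4.47 and 4.47 (log2 difference −1.69, SE 0.42, adjusted p = 0.0368). Of the 7 called genes of the lipid lists (Abcg5 aside), 1 (Cd36) kept the call whichever array was left out, and the others lost it without at least 1 of the arrays of lean control rats 1, 2, 4 and 5 and obese rats 1, 3, 4 and 5 (adjusted p of up to 0.124), while 1 passed with these 10 arrays alone in the fit.

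Genes of fat oxidation and mitochondria were mostly higher in obese livers by small amounts. Of 50 beta-oxidation genes 43 had a difference above 0, against 50.6% of all genes, with a median of 0.34. Of these 50, 2 were called, both higher (4%, against 1.81% of all genes called and 0.686% called higher). The groups did not overlap in 6, all higher, against 3.53% of all genes without overlap and 1.53% wholly higher. Acot13, a thioesterase of acyl-CoA, read 4.78, 4.93, 5.44, 5.39 and 4.67 in lean control and 6.07, 6.12, 5.66, 5.64 and 5.69 in obese livers (log2 difference 0.79, SE 0.16, adjusted p = 0.0194). Vnn1, a pantetheinase induced by PPARalpha, read 4.30, 5.62, 5.77, 4.58 and 4.14 against 6.79, 6.28, 6.35, 6.40 and 6.69 (log2 difference 1.62, SE 0.34, adjusted p = 0.0194). Carnitine palmitoyltransferase Cpt1a, the gate of mitochondrial oxidation, did not pass (log2 difference −0.08, SE 0.16, adjusted p = 0.848).

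The mean level of the 50 genes was 6.80, 7.46, 7.48, 7.03 and 6.81 in lean control and 7.61, 7.45, 7.38, 7.28 and 7.60 in obese livers. Lean control rats 2 and 3 lay within the obese range and rats 1, 4 and 5 below it. Without rat 3, 12 members were called, all higher, among them the subunits of the mitochondrial trifunctional protein Hadha and Hadhb, and in all 12 rat 3 lay nearer the obese mean.

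Respiratory chain and ATP synthase genes had 56 of 58 differences above 0 and a median of 0.23. In 9 of them the groups did not overlap, all higher, against 3.53% of all genes without overlap and 1.53% wholly higher. The 2 calls (3.45%, against 1.81% of all genes called and 0.686% called higher) were Cox6a1 of complex IV (log2 difference 0.38, SE 0.09, adjusted p = 0.0307) and Ndufs7 of complex I (log2 difference 0.43, SE 0.11, adjusted p = 0.0445). The mean level of the 58 genes ran from 6.31 in lean control rat 1 to 6.83 in rat 3 and from 6.75 to 6.90 in obese livers. Ketone body and mitochondrial pyruvate genes had 21 of 23 above 0 and a median of 0.25 with no call. The members with the smallest p, Sdhc (log2 difference 0.49, SE 0.13, adjusted p = 0.0610) and Idh3g (log2 difference 0.43, SE 0.12, adjusted p = 0.0649), encode parts of the citric acid cycle and were both called without rat 3. Mitochondrial ribosomal proteins had 53 of 63 above 0, a median of 0.17 and no call. Cytosolic ribosomal proteins had a median of −0.04 over 88 genes, with no call (1, lower, without rat 3). Without rat 3 the calls were 8 in the respiratory chain, 6 in the ketone and pyruvate list and 2 among mitochondrial ribosomal proteins, all higher. Of the 4 called genes of these lists, none kept the call whichever array was left out, each losing it without at least 1 array other than that of lean control rat 3 (adjusted p of up to 0.112), while 1 passed with these 10 arrays alone in the fit.

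**Figure D3:**
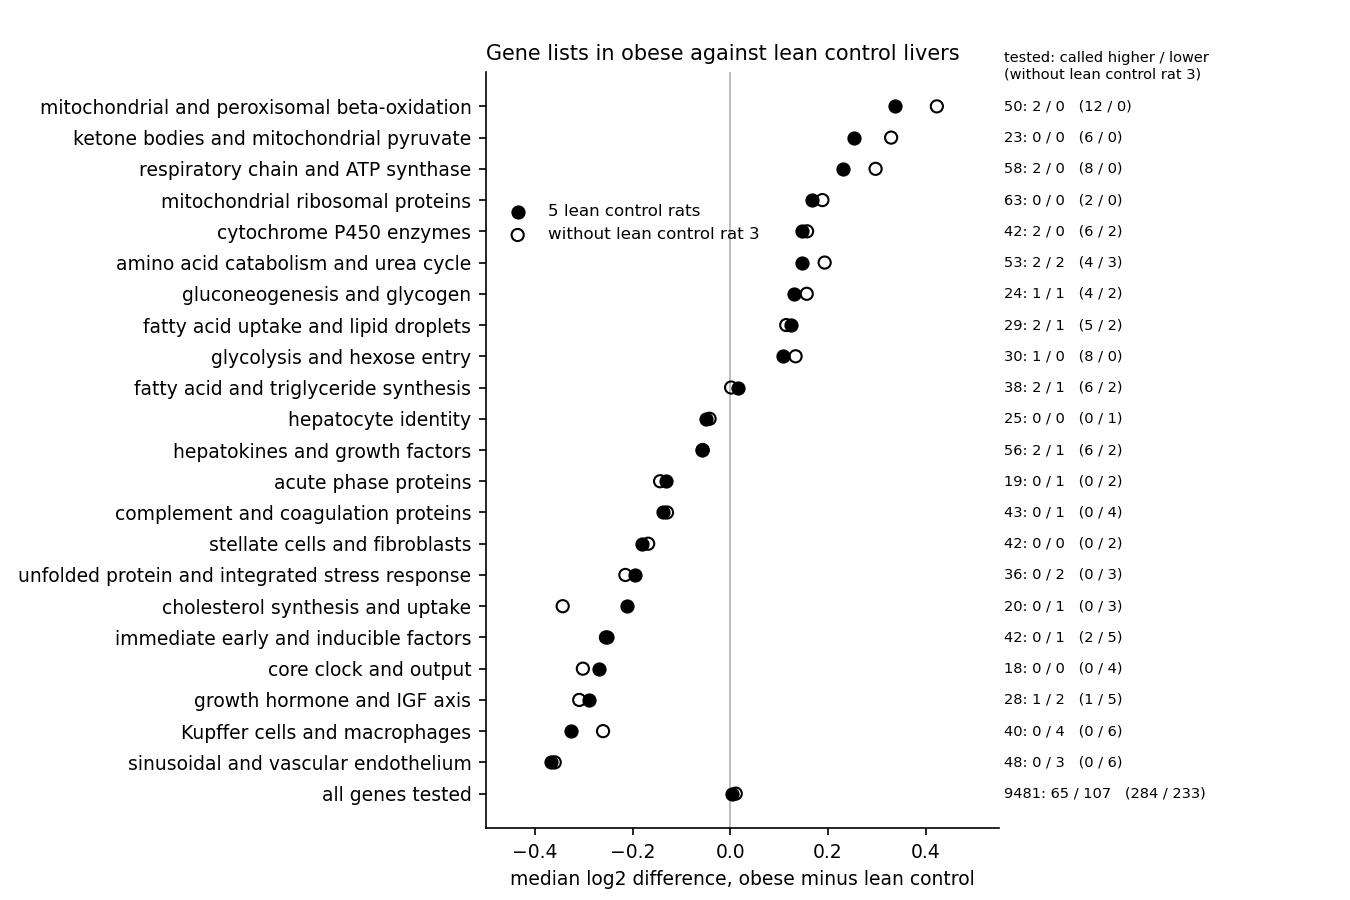
Median log2 difference, obese minus lean control, of 22 gene lists and of all tested genes with 5 lean control rats (filled) and without lean control rat 3 (open), with the number tested and called at the right. Medians run from −0.37 (endothelium) to 0.34 (beta-oxidation), and the side of 0 is the same with and without rat 3 in every list drawn.

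Enzymes of sugar and amino acid metabolism held a few large differences. Gpt, the cytosolic alanine aminotransferase, read 5.50, 6.68, 7.39, 5.97 and 5.74 in lean control and 7.19, 7.86, 7.60, 7.46 and 7.42 in obese livers (log2 difference 1.25, SE 0.30, adjusted p = 0.0294). Got1, the cytosolic aspartate aminotransferase, moved the other way, with 9.26, 9.25, 7.94, 9.46 and 8.93 against 6.96, 7.88, 8.16, 7.16 and 7.13 (log2 difference −1.51, SE 0.32, adjusted p = 0.0216). In both genes lean control rat 3 lay in the obese range. Tkfc, which phosphorylates fructose-derived glyceraldehyde, rose from 6.74, 5.83, 8.01, 6.0 and 6.85 to 8.53, 7.77, 8.32, 8.01 and 8.0 (log2 difference 1.44, SE 0.30, adjusted p = 0.0194). It was the only call among 30 genes of glycolysis and hexose entry (3.33%, against 1.81% of all genes called and 0.686% called higher). Without rat 3, 8 of the 30 were called, all higher, where 5.45% of all genes were called and 3% called higher.

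Among 53 genes of amino acid catabolism and the urea cycle, 2 rose and 2 fell, 7.55% against 1.81% of all genes. Without rat 3 the calls were 4 higher and 3 lower. Besides the aminotransferases the calls with all arrays were Bckdhb, a subunit of the branched-chain ketoacid dehydrogenase (log2 difference 0.56, SE 0.13, adjusted p = 0.0273), and the mitochondrial ornithine carrier Slc25a15 (log2 difference −0.77, SE 0.16, adjusted p = 0.0221). The amino acid uptake carriers Slc38a2 and Slc1a4 fell, with Slc38a2 at 9.49, 9.26, 7.88, 9.28 and 9.43 against 7.50, 7.42, 8.46, 8.30 and 7.67 (log2 difference −1.20, SE 0.27, adjusted p = 0.0250) and Slc1a4 at 4.64, 4.79, 3.0, 3.89 and 4.17 against 3.21, 2.35, 2.82, 2.72 and 2.25 (log2 difference −1.43, SE 0.30, adjusted p = 0.0206). Of 190 solute carriers, 2 rose, the mitochondrial carrier Slc25a47 (by 0.77) and the sugar transporter Slc50a1 (by 0.42), and 4 fell, the last of them the phosphate carrier Slc17a2 (by 0.52). These calls were 3.16% of the carriers, against 1.81% of all genes. The median of the carriers was 0.00. Without rat 3 the calls were 7 higher and 5 lower, where 5.45% of all genes were called (3% higher, 2.46% lower). Of these 10 called genes, none kept the call whichever array was left out, each losing it without at least 1 array other than that of lean control rat 3 (adjusted p of up to 0.0998), while 1 passed with these 10 arrays alone in the fit.

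Secreted signals changed in 3 of 56 hepatokines and growth factors (2 higher, 1 lower), 5.36% against 1.81% of all genes, and 6 rose and 2 fell without lean control rat 3. Inhbe, which encodes the hepatokine activin E, read 6.55, 6.80, 7.76, 6.78 and 6.55 in lean control and 8.14, 7.72, 7.72, 8.11 and 8.44 in obese livers (log2 difference 1.14, SE 0.23, adjusted p = 0.0194). Lean control rat 3 was the only lean control within the obese range. Bmp7, a growth factor of the TGF-beta family, rose from 3.33, 3.29, 3.71, 2.64 and 3.22 to 4.34, 3.89, 4.35, 3.71 and 4.44 (log2 difference 0.91, SE 0.20, adjusted p = 0.0250), and Vegfb, a growth factor of the VEGF family, fell from 5.41, 5.63, 5.16, 5.53 and 5.61 to 5.39, 4.64, 4.60, 4.91 and 4.91 (log2 difference −0.58, SE 0.15, adjusted p = 0.0407). Fgf21, a fasting and stress hormone of the liver, was at 3.28, 4.21, 4.92, 2.92 and 3.24 against 6.37, 4.88, 5.21, 4.78 and 5.53 (log2 difference 1.64, SE 0.45, adjusted p = 0.0610). It missed the threshold with 5 lean controls, and without rat 3 it was called at a log2 difference of 1.94 (adjusted p = 0.0145).

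Among plasma protein genes, 3 of 36 carriers and apolipoproteins were called (Apoa4, Pltp and the sterol exporter Abcg5), 8.33% against 1.81% of all genes. The calls were 1 of 43 complement and coagulation genes (2.33%) and 1 of 19 acute phase genes (5.26%). Without rat 3 these lists had 4, 4 and 2 calls, all lower apart from Apoa4. Apoa4, an apolipoprotein of triglyceride-rich particles, rose by 0.90 (SE 0.23, adjusted p = 0.0407) and the phospholipid transfer protein Pltp fell by 0.68 (SE 0.17, adjusted p = 0.0353). Serpina3c, a serine protease inhibitor, read 10.06, 10.26, 9.43, 10.41 and 10.62 in lean control and 8.31, 9.13, 8.76, 9.18 and 9.18 in obese livers (log2 difference −1.25, SE 0.22, adjusted p = 0.0108), and Serpina4, which encodes kallistatin, rose by 0.39 (adjusted p = 0.0384). The complement and coagulation list had 32 of 43 differences below 0 and 5 genes without overlap, all lower, against 3.53% of all genes without overlap and 2% wholly lower. Its single call, C1qa, is made by macrophages. Cytokines and chemokines gave 1 call among 42 (2.38%, against 1.81% of all genes), and 1 higher and 2 lower without rat 3. The call with all arrays was Il1a, interleukin 1 alpha, at 6.65, 6.70, 6.34, 6.44 and 6.58 against 5.0, 5.43, 5.39, 4.90 and 4.86 (log2 difference −1.43, SE 0.24, adjusted p = 0.00689). The groups lay far apart in Il1a, with 0.91 between the lowest lean control and the highest obese value. Of the 8 secreted products called and named here (C1qa and Abcg5 aside), 2 (Serpina3c and Il1a) kept the call whichever array was left out, and the others lost it without at least 1 array other than that of lean control rat 3 (adjusted p of up to 0.111), while 2 passed with these 10 arrays alone in the fit.

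Macrophage markers lay mostly lower in obese livers. Of 40 Kupffer cell and macrophage markers 34 had a difference below 0, against 49.4% of all genes, with a median of −0.33. They held 4 calls (10%, against 1.81% of all genes called and 1.13% called lower) and 6 without overlap (against 3.53% of all genes without overlap and 2% wholly lower), all lower. C1qa, a subunit of complement C1q, read 6.15, 6.37, 6.08, 6.15 and 6.24 in lean control and 5.51, 5.85, 5.61, 5.64 and 5.60 in obese livers (log2 difference −0.56, SE 0.10, adjusted p = 0.0133). Fcer1g, the signalling chain of Fc receptors, read 6.29, 6.34, 6.12, 6.13 and 5.93 against 5.46, 5.72, 5.64, 5.55 and 5.74 (log2 difference −0.54, SE 0.12, adjusted p = 0.0217). In both genes lean control rat 3 lay with its own group. The receptor tyrosine kinase Axl fell by 0.55 and Cd5l, a macrophage survival factor, by 0.79 (adjusted p = 0.0221 and 0.0244).

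Several defining Kupffer cell genes, though not Marco, had similar differences without passing the test. The lectin Clec4f was at 6.0, 6.58, 6.55, 6.32 and 5.98 against 5.44, 6.01, 5.63, 5.64 and 5.93 (log2 difference −0.56, SE 0.16, adjusted p = 0.0690), and Vsig4, Cd68 and Adgre1 had differences of −0.68, −0.49 and −0.60 (adjusted p = 0.0634, 0.0672 and 0.0818). These 4 were looked up after other values were seen, and none passed without rat 3 either. Marco, a scavenger receptor, overlapped widely (−0.25, adjusted p = 0.749), and without rat 3 its difference was 0.07 (adjusted p = 0.922). Some genes outside the list that are known from macrophages or other leukocytes are named here because they were called lower, so their direction adds nothing to that of the list. They include Adgre4, an adhesion receptor of macrophages (log2 difference −0.96, SE 0.15, adjusted p = 0.00577), and Cd4 (log2 difference −0.68, SE 0.13, adjusted p = 0.0165), which in rats is carried by macrophages as well as helper T cells. Clec4a3, C3ar1, the receptor of complement C3a, Fyb1, an adaptor of T and myeloid cells, Hpgds, a prostaglandin D synthase, and Rab3il1 fell by 0.95, 0.84, 0.84, 0.82 and 0.66. Ptgs1, the cyclooxygenase 1 gene, Clec12a and Lcp1, singled out after their values were seen, fell by 0.63, 0.69 and 0.55. Among these 14 called genes, 7 (C1qa, Adgre4, Cd4, Fyb1, Hpgds, Ptgs1 and Rab3il1) kept the call whichever array was left out, and the others lost it without at least 1 of the arrays of lean control rats 1, 2 and 4 and obese rats 1, 2, 3, 4 and 5 (adjusted p of up to 0.0895), while 4 passed with these 10 arrays alone in the fit.

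The mean level of the 40 macrophage markers was 4.57, 4.80, 4.73, 4.58 and 4.33 in lean control and 4.25, 4.37, 4.31, 4.23 and 4.36 in obese livers, so the groups overlapped only through lean control rat 5. In bulk tissue, fewer cells of a type and less RNA per cell cannot be told apart. Without lean control rat 3 the median of the list was −0.26 and 6 markers were called, all lower. Markers of neutrophils and monocytes had a median of −0.03 over 11 genes and no call, toll-like receptor and inflammasome genes 0.02 over 31 and none, interferon-stimulated genes −0.08 over 36 and none, and antigen presentation genes 0.00 over 27 and none.

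Endothelial markers lay mostly lower as well. Of 48, 40 had a difference below 0, with a median of −0.37. They held 3 calls (6.25%, against 1.81% of all genes called and 1.13% called lower) and 8 without overlap (against 3.53% of all genes without overlap and 2% wholly lower), all lower. Without rat 3 there were 6 calls, all lower. Vcam1, an adhesion molecule of sinusoidal endothelium, read 4.32, 5.09, 4.69, 4.71 and 4.24 in lean control and 3.92, 3.75, 3.87, 4.0 and 3.66 in obese livers (log2 difference −0.77, SE 0.16, adjusted p = 0.0194). Lyve1, the hyaluronan receptor of sinusoidal and lymphatic endothelium, read 6.82, 6.85, 6.83, 6.83 and 6.43 against 6.36, 6.11, 6.28, 5.90 and 6.35 (log2 difference −0.55, SE 0.12, adjusted p = 0.0251). The junction protein Cdh5 (VE-cadherin) fell by 0.51 (SE 0.13, adjusted p = 0.0379). None of the 3 overlapped. Stab2, a scavenger receptor of sinusoidal endothelium, looked up afterwards, did not overlap either but missed the threshold (log2 difference −0.64, SE 0.21, adjusted p = 0.105). Of these 3 calls, 1 (Vcam1) kept the call whichever array was left out, and the others lost it without at least 1 of the arrays of lean control rats 1, 2 and 4 and obese rats 1, 2, 3 and 4 (adjusted p of up to 0.0984), while none passed with these 10 arrays alone in the fit.

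The mean level of the 48 endothelial markers was 4.37, 4.50, 4.46, 4.47 and 4.26 in lean control and 4.22, 4.03, 4.01, 4.12 and 4.18 in obese livers, without overlap. Levels also lay wholly lower in the complement and coagulation, lineage factor, STAT, IRF and NF-kB, growth hormone, glucagon and matrix lists. The same held for the B cell and clock lists described below, and levels of all other lists overlapped. Stellate cell and fibroblast markers had 32 of 42 differences below 0 and a median of −0.18 with no call (2, lower, without rat 3), and their levels overlapped, from 4.58 to 4.65 against 4.36 to 4.61. B and plasma cell markers had a median of −0.30 over only 6 tested genes, 5 of them below 0, with no call (1, lower, without rat 3). Their mean levels, near the array medians, did not overlap, from 2.92 to 3.25 in lean control and from 2.67 to 2.83 in obese livers. Medians were −0.12 over 16 T and NK lymphocyte markers, with Cd4 as the call (6.25%, against 1.81% of all genes), and 0.08 over 12 cholangiocyte markers, with none (1, higher, without rat 3). Erythroid markers had a median of 0.32 over 7, with no call and levels of 4.07 to 4.41 against 4.23 to 4.61. The hepatocyte identity list had a median of −0.05 and levels of 10.01 to 10.15 in lean control and 9.95 to 10.07 in obese livers. Periportal and pericentral genes had medians of 0.01 over 13 and −0.01 over 20. There was 1 call higher in the periportal list (7.69%) and 1 in each direction in the pericentral list (10%), against 1.81% of all genes. The pericentral list had 3 calls in each direction without rat 3.

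**Figure D4:**
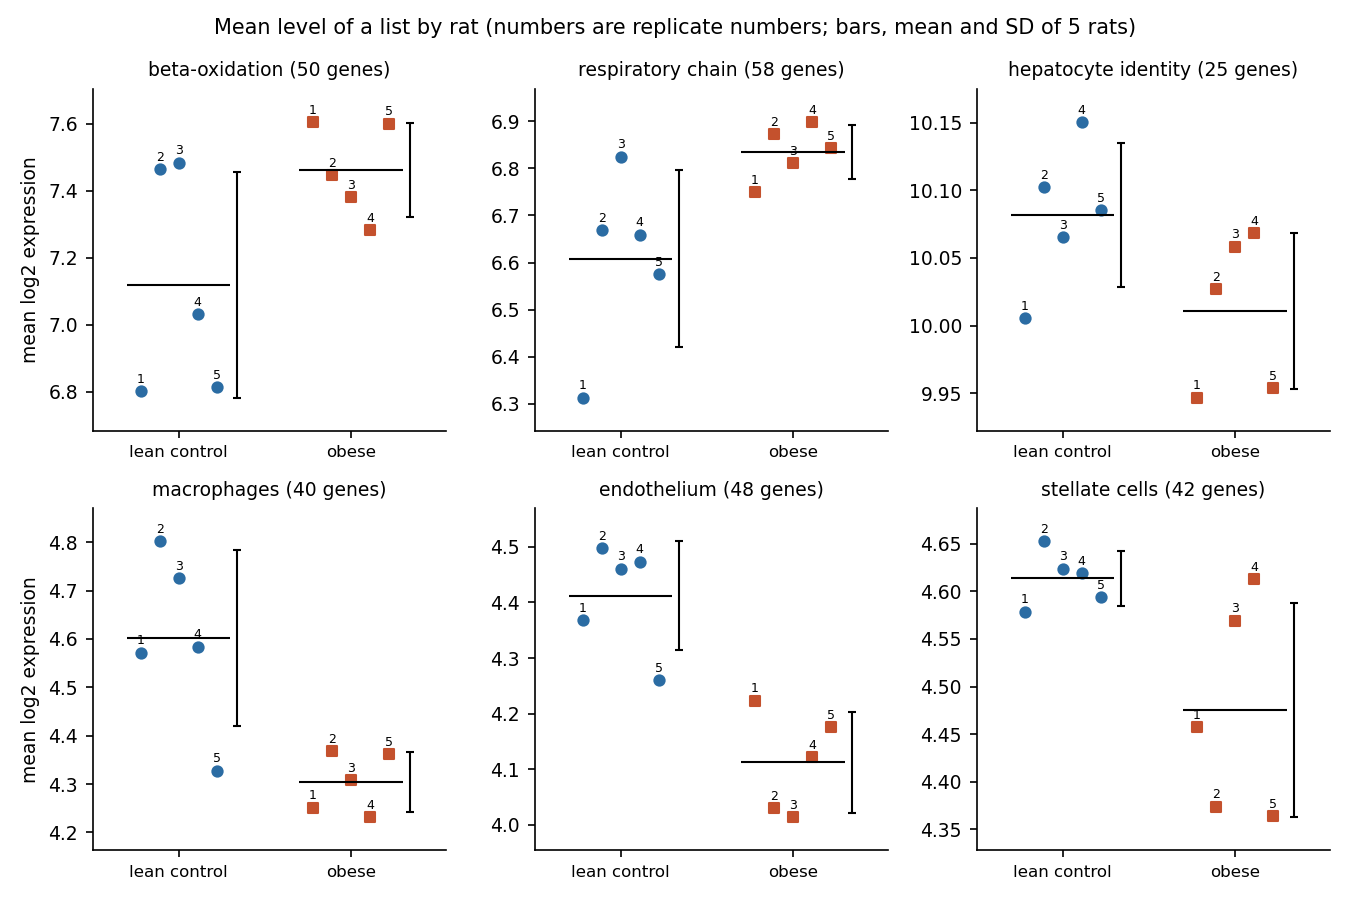
Mean log2 expression over the tested members of 6 lists in each lean control (circles) and obese (squares) liver, with group mean, SD of 5 rats and replicate numbers; each panel has its own axis. Lean control rat 3 lies within the obese range for the beta-oxidation and respiratory chain lists and with its own group for the macrophage, endothelial and stellate cell lists.

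Among the genes called without lean control rat 3, the median place of that rat on a scale from 0 (mean of the other 4 lean controls) to 1 (obese mean) was 0.95 for the 12 beta-oxidation genes, 1.20 for the 8 glycolysis genes, 1.11 for the 7 immediate early factors and 0.87 for the 6 growth hormone axis genes. It was 0.18 for the 6 macrophage and 0.13 for the 6 endothelial markers. These places are descriptions, and the difference between lists was not tested.

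Stress, detoxification and housekeeping lists held few calls. The called shares were 4.76% of P450 genes, 2.63% of conjugation enzymes and 5.56% of the unfolded protein list, against 1.81% of all genes. Cytochrome P450 genes had a median of 0.15 over 42 with Cyp2a1 and Cyp2d4 (log2 difference 0.83, SE 0.21, adjusted p = 0.0460) higher, and of 38 conjugation enzymes only Ugt2b35, a glucuronosyltransferase, was called (log2 difference −0.43, SE 0.10, adjusted p = 0.0294). Without rat 3 the calls were 6 higher and 2 lower among the P450 genes. Among the conjugation enzymes they were then 5 higher and 2 lower, with Ugt2b35 still lower (log2 difference −0.44, adjusted p = 0.0225). The unfolded protein and integrated stress list had 28 of 36 below 0 and a median of −0.19, with Xbp1 and Chac1, which degrades glutathione, as calls. Chac1 read 6.52, 7.20, 4.45, 6.23 and 6.90 in lean control and 4.86, 3.45, 4.64, 4.11 and 3.99 in obese livers (log2 difference −2.05, SE 0.52, adjusted p = 0.0460), with rat 3 again in the obese range. The ferrireductase Steap3 rose from 5.37, 4.65, 5.76, 5.26 and 5.52 to 5.91, 6.31, 6.25, 6.43 and 6.17 (log2 difference 0.90, SE 0.20, adjusted p = 0.0221), and the transporter Abca2 rose by 0.53 (adjusted p = 0.0406). No member was called among 27 antioxidant genes, 65 chaperones, 63 proteasome and ubiquitin genes, 40 autophagy and lysosome genes, 84 splicing factors, 67 translation factors, 73 matrix genes and 18 genes of leptin, adiponectin and AMPK signalling. Without rat 3, where 5.45% of all genes were called, there were 2 calls among the chaperones, both higher. There were then 3 among the matrix genes, 1 higher and 2 lower. Of Cyp2d4, Ugt2b35, Chac1, Steap3, Abca2 and Abcg5, none kept the call whichever array was left out, each losing it without at least 1 array other than that of lean control rat 3 (adjusted p of up to 0.126), while none passed with these 10 arrays alone in the fit.

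Clock and clock output genes had a median of −0.27 over 18, with none called. Their mean level was 6.31, 6.32, 6.09, 6.19 and 6.25 in lean control and 5.75, 5.98, 6.07, 5.90 and 6.02 in obese livers, without overlap, the lean control value of rat 3 being the lowest of its group. Without rat 3, 4 members were called, all lower (Cyp7a1, Lpin1, Noct and Per1). Other members varied widely among rats of each group. Dbp, an output factor of the clock, was at 8.95, 6.57, 7.72, 8.66 and 8.88 in lean control and 5.83, 7.53, 8.36, 8.36 and 7.38 in obese livers (log2 difference −0.66, SE 0.63, adjusted p = 0.642), and Per3 at 6.45, 4.67, 5.43, 6.12 and 6.56 against 3.42, 5.60, 5.75, 5.56 and 5.16 (log2 difference −0.75, SE 0.49, adjusted p = 0.468). Clock was at 6.13, 6.86, 6.66, 5.77 and 5.65 against 6.94, 6.55, 6.14, 6.01 and 6.86 (log2 difference 0.29, SE 0.26, adjusted p = 0.625), highest in rats 2 and 3 among lean controls. Lean control rats 2 and 3 thus differed from rats 1, 4 and 5, and obese rat 1 had the lowest Dbp of its group. This order of rats, and Ehhadh, Pdk4 and Plin2, genes induced by PPARalpha, were looked at after the values were seen. Lean control rats 2 and 3 had Plin2 at 7.79 and 8.57 and Pdk4 at 8.22 and 8.78, against at most 5.20 and 6.04 in lean control rats 1, 4 and 5. For Ehhadh the values were 8.22, 9.73, 9.99, 8.49 and 8.36 in lean control and 9.93, 9.78, 9.40, 8.96 and 9.95 in obese livers (log2 difference 0.65, SE 0.31, adjusted p = 0.278). The beta-oxidation level was high in the same 2 lean controls, and the part of clock phase in the metabolic differences was not tested.

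**Figure D5:**
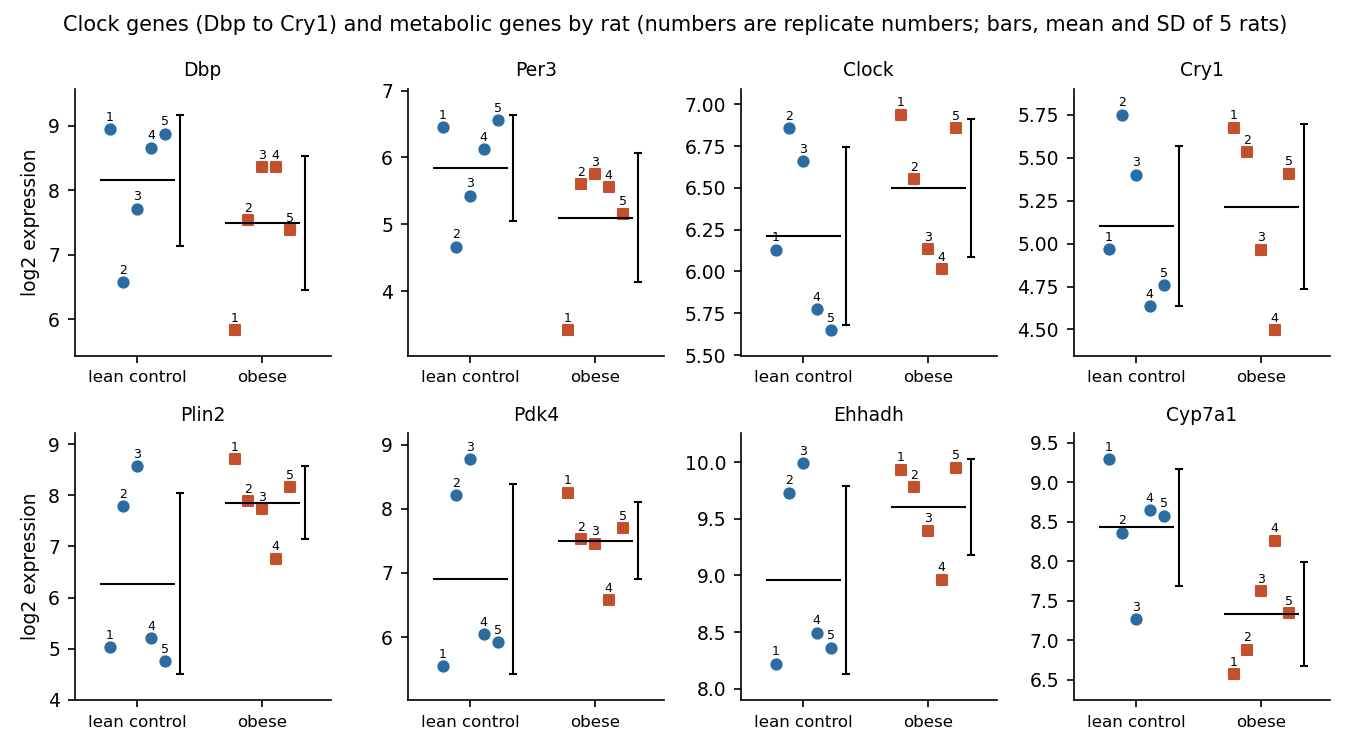
Log2 expression of the clock genes Dbp, Per3, Clock and Cry1 and of Plin2, Pdk4, Ehhadh and Cyp7a1 in each lean control (circles) and obese (squares) liver, with group mean, SD of 5 rats and replicate numbers; each panel has its own axis. Lean control rats 2 and 3 lie below rats 1, 4 and 5 in Dbp and Per3 and above them in Clock, Cry1, Plin2, Pdk4 and Ehhadh.

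Of the 172 called genes, 101 lay in no list. The 15 with the greatest rise among those without overlap were Src, a tyrosine kinase (log2 difference 0.91, SE 0.22, adjusted p = 0.0294), Itpka, an inositol trisphosphate kinase, Ctnna3, a catenin of cell junctions, Aspdh, Aqp11, an intracellular aquaporin, Gchfr, the feedback regulator of GTP cyclohydrolase, Alkbh2, a DNA repair enzyme, Mettl26, Mthfd2, a folate enzyme of mitochondria, Atp6v0e2, a subunit of the proton pump, Apoo, a cristae protein of mitochondria, Neurl1b, Coq5, an enzyme of ubiquinone synthesis, Usp46, a deubiquitinase, and Pheta1. Their differences ran from 0.49 for Pheta1 to 0.91 for Src. In Neurl1b every lean control value lay below the array medians, so it entered the test only through other arrays. Some lean control values of Ctnna3, Itpka and Pheta1 lay below the array medians as well. Mthfd2 was at 2.19, 2.39, 2.30, 2.27 and 2.38 in lean control and 3.40, 3.02, 2.79, 2.90 and 2.60 in obese livers (log2 difference 0.63, SE 0.14, adjusted p = 0.0221), both near the array medians. Atp6v0e2 read 4.30, 4.60, 4.61, 4.25 and 4.57 against 5.16, 5.15, 4.97, 4.95 and 5.21 (log2 difference 0.62, SE 0.11, adjusted p = 0.00689), and among these genes, 1 (Atp6v0e2) kept the call whichever array was left out, and the others lost it without at least 1 array other than that of lean control rat 3 (adjusted p of up to 0.122), while 2 passed with these 10 arrays alone in the fit. The greatest rise of all tested genes, with overlap, was that of Prss32, a serine protease noted after its values were seen, at 1.99, 2.20, 4.13, 1.84 and 1.61 against 3.81, 4.45, 4.61, 4.45 and 4.47 (log2 difference 2.01, SE 0.34, adjusted p = 0.00689). Its lean control values other than that of rat 3 lay below the array medians, so this rise starts near the low end of the scale.

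The corresponding 15 with the greatest fall included the myeloid genes Clec4a3, Fyb1, C3ar1 and Hpgds given above. The others were Prtfdc1, a relative of the purine salvage enzyme HPRT, Ctdspl, a phosphatase, Phlda1, Dock3, Pvr, an adhesion receptor, Clic2, Tmem98, Astn2, Sema6a, a semaphorin, Zfand2a and Pla2g4a, the cytosolic phospholipase A2 that frees arachidonic acid. Prtfdc1 read 4.91, 4.17, 3.48, 4.85 and 4.59 in lean control and 2.75, 2.86, 2.79, 2.88 and 3.13 in obese livers (log2 difference −1.52, SE 0.28, adjusted p = 0.0121). Sema6a read 4.60, 4.80, 4.54, 4.62 and 4.46 against 3.62, 3.71, 3.85, 3.72 and 4.28 (log2 difference −0.77, SE 0.12, adjusted p = 0.00577), and Clic2 5.92, 6.04, 5.37, 5.65 and 5.73 against 4.41, 5.13, 5.09, 4.93 and 4.82 (log2 difference −0.87, SE 0.14, adjusted p = 0.00577). Rat 3 had the lowest lean control value in Prtfdc1 and Clic2, above the obese range. Pla2g4a fell by 0.71 (adjusted p = 0.0108) and the rest by 0.76 to 1.0. The obese values of Astn2 lay near or below the array medians. Of the 11 genes not given above, 6 (Prtfdc1, Phlda1, Clic2, Tmem98, Sema6a and Pla2g4a) kept the call whichever array was left out, and the others lost it without at least 1 array other than that of lean control rat 3 (adjusted p of up to 0.0874), while 4 passed with these 10 arrays alone in the fit. Their cell of origin was not examined. Among listed cell cycle and signalling genes, the kinetochore subunit Spc24 (log2 difference 1.21, SE 0.26, adjusted p = 0.0221), the spindle protein Prc1 (higher by 0.68) and the receptor phosphatase Ptprs (higher by 0.80) rose, and of these 3, none kept the call whichever array was left out, each losing it without at least 1 array other than that of lean control rat 3 (adjusted p of up to 0.0827), while 1 passed with these 10 arrays alone in the fit. The lean control values of Spc24 and Prc1 lay near or below the array medians.

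Lean control livers varied more than obese livers. The median SD over tested genes was 0.237 in lean controls and 0.210 in obese rats, and the lean SD was the greater in 58.8% of genes and in 127 of the 172 called. The spread of a gene in the fit was pooled over all 4 groups. With only the lean control and obese arrays in the fit, 27 genes were called (0.285%), 6 higher (0.0633%) and 21 lower (0.221%), and 25 of the 27 were among the 172.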

How the data were processed

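The authors extracted total RNA from snap-frozen liver (TRIzol and RNeasy with DNase) and hybridised 100 ng per rat to Affymetrix Rat Gene arrays. The deposited values are log2 expression of 36685 probe sets, computed by the authors with RMA (background correction, quantile normalisation and probe summary), whose version is not given in the sources. No detection call was used, and precision is limited by how few arrays there are. Groups came from sample titles, and the labels call the arrays biological replicates.

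Platform annotation gave 1 symbol to 14824 probe sets, several to 829 (not used) and none to 21032. For 234 genes with several probe sets, the one with the highest mean over 20 arrays was used. Genes above the array's percentile 50 in at least 5 arrays were tested in R 4.3.3 by limma 3.58.1, fitted to all 20 arrays without a covariate (16 residual degrees of freedom), two-sided, with Benjamini-Hochberg adjustment over 9481 genes. The fit was tested on simulated data. No test was run on a gene list. Tables and figures were made in Python 3.11.15 with matplotlib 3.10.9.

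The 62 gene lists and the genes named were chosen with earlier results of these data known, so list counts are descriptions. In each list up to 6 called genes by smallest p were named, or up to 2 where none was called, with up to 15 called genes in each direction outside the lists and 15 fixed genes, of which 8 were measured and the others are not reported here. Some of these are left out of the text for length. Promoters were the first RefSeq window of a gene, assembly GRCr8, and the CREB motif CGTCA was added after the values were seen. Replicate numbers did not pair the arrays (correlations of deviations from −0.144 to 0.172). Alternatives covered the filter, normalisation, probe set summary, spread model, thresholds, a replicate block and leaving out arrays.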

Additional observations from a re-analysis of the deposited data

Results flagged for a closer look

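Within groups of 5 rats, a rat was marked where its gap to the nearest other rat exceeded 0.71 of the whole range of the group. Over the named genes this was examined in 304 groups of values and held in 19, and chance alone marks about 1 group in 20. Lean control rat 3 stood apart in Inhbe at 7.76 above 6.55 to 6.80 in the other rats, Noct at 5.55 below 6.70 to 7.11, Idi1 at 3.83 below 5.79 to 5.92, Slc38a2 at 7.88 below 9.26 to 9.49, Slc25a47 at 9.33 above 8.21 to 8.32, Ptprs at 6.51 above 5.30 to 5.58 and Zfand2a at 4.82 above 3.99 to 4.12. Lean control rat 1 stood apart in Cox6a1 at 8.22 below 8.49 to 8.53 in the other rats, Ftl1 at 9.16 below 10.09 to 10.43, Rbm6 at 5.90 above 5.57 to 5.66, Eif4a2 at 7.45 below 7.75 to 7.81 and Fyb1 at 4.41 above 3.90 to 4.02. Lean control rat 5 stood apart in Rel at 5.75 above 5.07 to 5.15 in the other rats, Lyve1 at 6.43 below 6.82 to 6.85 and Hpgds at 4.17 below 4.89 to 5.05. Obese rat 2 stood apart in Idi1 at 5.02 above 3.59 to 3.94 in the other rats and Coq5 at 4.37 above 4.01 to 4.10. Obese rat 4 stood apart in Lsm1 at 4.79 above 4.11 to 4.28 in the other rats. Obese rat 5 stood apart in Rbm6 at 5.56 above 5.40 to 5.43 in the other rats. Of the marked groups, 7 were those in which lean control rat 3 was the extreme rat.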

How the results depend on the processing

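The comparison gave 172 calls. It gave 290 with a filter at percentile 75, which tests 5434 genes, and 27 with only the lean control and obese arrays in the fit. At an adjusted p under 0.01, 11 genes passed (2 higher, 9 lower). Leaving out 1 array at a time gave 59 to 517 calls, the lowest without lean control rat 4 and the highest without lean control rat 3. Chosen after seeing the data, the fit of only lean control and obese arrays without lean control rat 3 gave 318 calls, and leaving out lean control rats 1 and 3 gave 317. The other settings gave between 122 (fold of at least 1.5) and 249 calls (array weights), and with the replicate number as a block 152 genes were called. No named gene changed sign where it was called. Of 1301 list medians recomputed, 11 moved by more than 1 SD of the list's level between rats. The cause of these changes was not tested. Each group held 5 rats, the lean controls (rat 3 included) varied more than the obese rats, and values near the array medians carry no detection call. The replicate numbers are not stated to mark shared litters or days.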

Other observations

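Other gene families gave few calls. Among 76 tested G protein-coupled receptors, 6 had obese values wholly below the lean control values. Over all genes 2% lay wholly lower, and 3.53% did not overlap in either direction. One receptor was called (Adgre4, 1.32%, against 1.81% of all genes). Of 133 kinases and phosphatases 4 were wholly lower and 1 was called (Ptprs, higher, 0.752%). Of 60 chromatin genes 2 were wholly lower and 1 was called (Chd1, 1.67%). Both called shares lay below the 1.81% of all genes. Without lean control rat 3, where 5.45% of all genes were called, the calls were 4 receptors, all lower. They also held 3 kinases and phosphatases higher and 4 lower, and 2 chromatin genes in each direction. The hepatocyte growth factor gene Hgf, made by non-parenchymal cells, had values of 6.29, 6.14, 5.94, 6.29 and 6.00 in lean control rats 1 to 5 and 6.00, 5.63, 5.33, 5.72 and 5.59 in obese rats, and missed the threshold (log2 difference −0.48, SE 0.13, adjusted p = 0.0666), but was called without lean control rat 3 (−0.52, adjusted p = 0.0331). The innate sensor Tlr7 (−0.71, adjusted p = 0.0925) and the inflammasome protease Casp1 (−0.45, adjusted p = 0.0846) missed it with and without that rat. Krt23, a keratin, ranged from 1.40 to 3.24 in lean control and from 2.34 to 4.20 in obese livers (adjusted p = 0.0749, and 0.0488 without lean control rat 3).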
